A study of Homo sapiens with 12 samples.

Results

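The subject is 10 receptor tyrosine kinases of carcinoma cells, EGFR, ERBB2, ERBB3, FGFR1, FGFR2, FGFR3, FGFR4, MET, AXL and EPHA2, measured on 12 Affymetrix U133 Plus 2.0 arrays. They were taken as a list of gene names, and all probe sets assigned by the array's annotation to 1 of these genes alone were used. This gave 48 probe sets of 54613 on the array, of which 37 passed a filter on dim signals. Each receptor had at least 1 that passed, so 10 of the 14061 genes tested are described here. The main probe set of a receptor is the one with the highest mean signal over the 12 arrays.

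The arrays cover 2 established human cancer cell lines, A549 from a lung adenocarcinoma, grown in RPMI1640, and SW780 from a bladder carcinoma, grown in Leibovitz's L-15 medium. Cells of each line received siKDM3A, a small interfering RNA against the H3K9 demethylase KDM3A, or 1 of the control siRNAs siEGFP and siFFluc, all at 100 nM with a lipid reagent, and RNA was taken after 24 h. Each line and siRNA has 2 arrays, so a line has 2 siKDM3A arrays and 4 control arrays. Whether the replicates came from separate cultures is not stated, so the p-values cover the scatter of these arrays only, and it may be technical.

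Receptor tyrosine kinases span the cell membrane. Binding of a ligand outside brings receptors together and lets their kinase domains phosphorylate each other on tyrosine, which recruits adaptor proteins and starts signalling through RAS and ERK and through PI3K and AKT. EGFR and its relatives ERBB2 and ERBB3 pair with each other. ERBB2 has no known ligand of its own, and ERBB3 has little kinase activity and signals by pairing. FGFR1 to FGFR4 bind fibroblast growth factors, MET binds hepatocyte growth factor, AXL binds GAS6, and EPHA2 binds ephrins on neighbouring cells. FGFR3 is often mutated or fused to a partner gene such as TACC3 or BAIAP2L1 in bladder cancer.

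For 4 receptors the results turn on, the 250 bases before the gene's first listed start are shown from RefSeq (GRCh38.p14), written 5′ to 3′ on the gene's strand. EPHA2 (chr1:16156070-16156319, minus strand), MET (chr7:116671946-116672195, plus strand) and AXL (chr19:41218973-41219222, plus strand) are shown because they were called under siKDM3A, and FGFR3 (chr4:1793043-1793292, plus strand) because it differed strongly between the lines. Capitals mark matches on either strand to the GC box GGGCGG or to the cyclic AMP response element TGACGTCA. The AP-1 motif TGANTCA was searched too and had 0 matches in these windows. No matches of different motifs overlapped.
EPHA2: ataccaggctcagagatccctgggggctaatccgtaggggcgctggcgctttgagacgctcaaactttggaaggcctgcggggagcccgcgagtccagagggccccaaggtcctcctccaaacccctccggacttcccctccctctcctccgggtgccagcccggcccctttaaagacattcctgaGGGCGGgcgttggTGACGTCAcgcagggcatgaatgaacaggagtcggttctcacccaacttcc
MET: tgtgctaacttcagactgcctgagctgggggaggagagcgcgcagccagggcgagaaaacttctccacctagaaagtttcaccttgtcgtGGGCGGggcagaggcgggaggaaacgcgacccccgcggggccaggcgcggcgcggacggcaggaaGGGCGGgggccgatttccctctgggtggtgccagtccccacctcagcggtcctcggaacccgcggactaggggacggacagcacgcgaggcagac
AXL: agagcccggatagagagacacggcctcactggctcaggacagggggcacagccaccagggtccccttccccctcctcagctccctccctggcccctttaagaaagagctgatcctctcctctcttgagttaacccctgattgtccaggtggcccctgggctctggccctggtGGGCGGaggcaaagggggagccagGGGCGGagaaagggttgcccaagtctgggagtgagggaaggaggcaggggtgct
FGFR3: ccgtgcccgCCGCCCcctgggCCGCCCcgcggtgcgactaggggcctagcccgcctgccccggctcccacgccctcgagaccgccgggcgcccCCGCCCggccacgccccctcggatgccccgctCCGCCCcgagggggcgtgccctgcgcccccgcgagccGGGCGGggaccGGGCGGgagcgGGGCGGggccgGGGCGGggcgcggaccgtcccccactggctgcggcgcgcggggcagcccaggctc

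The FGFR3 window held 8 GC boxes at a GC content of 86.8%, against 1 at 63.2% for EPHA2, 2 at 68.4% for MET and 2 at 64.4% for AXL. A GC box was found in 42.6% of 35116 windows of the same length in the table, the cyclic AMP response element, held by EPHA2 alone among these 4, in 1.65%, and the AP-1 motif in 6.57%. These matches describe the letters of the windows, and the arrays carry no measurement of binding there. The table held 8 of the 10 receptors.

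On all 12 arrays the trimmed mean of the signals was 500.1, and their number limits the precision. The median signal lay between 50.2 and 58.9. The Pearson r between the arrays of a pair, taken across genes, which are not independent, was 0.982 to 0.989. KDM3A itself fell to 50.5% of its control signal in A549 and to 53.3% in SW780, with each siKDM3A array under every control array of its line. The ratio of the beta-actin 3' to 5' control probe sets, a sign of RNA integrity, was 1.16 and 1.19 under siKDM3A in A549 against 1.20 to 1.29 in its controls. In SW780 it was 1.51 and 1.61 against 1.39 to 1.44. The beta-actin ratio therefore moved with siKDM3A, in opposite directions in the lines. The same ratio for GAPDH was 0.8935 and 0.8957 under siKDM3A in A549 against 0.9137 to 0.932 in its controls. In SW780 it was 0.9782 and 0.9949, within the controls at 0.9603 to 0.9995. The part of these ratios in the results below was not tested. In RNA from whole cultures, fewer cells with a transcript and less of it per cell cannot be told apart.

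Markers of cell type were read in the control arrays. SW780 carried the urothelial genes GATA3 (mean signal 12661) and UPK1B (10395), which read 358 and 660 in A549, but KRT20 (76.3) was dim and UPK3A (6.35) lay below the filter. A549 had the airway transcription factor FOXA2 (1069), but its other lung markers were dim or absent, with NKX2-1 at 9.90 and SFTPD at 8.38, both below the filter. All 8 epithelial markers were present in both lines, with summed signals of 61144 to 66668 in A549 and 128115 to 189081 in SW780. Under siKDM3A in A549 the summed signals of 9 lung markers (1084 and 1163 against 1382 to 1698), 7 fibroblast markers (1010 and 1136 against 1351 to 1377) and 5 leukocyte markers (188 and 204 against 238 to 290) lay below the controls. In SW780 the 10 urothelial markers lay below them (31317 and 32437 against 32674 to 39290) and the leukocyte markers above them (200 and 205 against 161 to 178). Of the fibroblast markers 4 of 7 passed the filter, with COL1A1 at 617 and LUM at 519 in the A549 controls, and COL1A2, COL3A1 and PDGFRB did not. Of 5 leukocyte markers CD3E (36.2), CD14 (69.0) and ITGAM (111) passed, and PTPRC and LYZ did not. The part of these shifts in the receptor results was not tested.

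The control arrays set the lines apart in 9 of 10 receptors. ERBB2, ERBB3, FGFR2, FGFR3 and EPHA2 were higher in SW780, FGFR1, FGFR4, MET and AXL were higher in A549, and EGFR was not called. Since 68.9% of all genes tested were called between the lines, 30.1% higher and 38.8% lower in SW780, that count is not a result about receptors. Lines, tissue of origin and medium cannot be told apart in this comparison. The sizes were large for most of them, and changes here and below are differences of log2(signal + 16) ± SE from limma, with p-values adjusted over all genes tested.

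Among the EGFR relatives, the pairing receptor ERBB3 differed most. In SW780 its main probe set read 1450 and 1415 under siEGFP and 1565 and 1432 under siFFluc, and in A549 114 and 148, then 48.2 and 70.3. The control mean was 15.4-fold higher in SW780 (3.83 ± 0.12, adjusted p = 6.66e-12), and no A549 array came near any SW780 array. A second ERBB3 probe set gave 3.01 ± 0.14 in the fit of all probe sets, of which 60.5% were called, while the remaining ERBB3 pair that passed the filter was not called. ERBB2 was 951 ± 115 in SW780 and 563 ± 43.3 in A549 (SD, n = 4 arrays each), a difference of 0.74 ± 0.07 (adjusted p = 6.34e-07). EGFR was nearly level at 5419 ± 732 and 5300 ± 749 (0.03 ± 0.07, adjusted p = 0.671). Its dimmer probe sets 210984_x_at (-0.42 ± 0.14) and 211607_x_at (-0.64 ± 0.16) were called lower in SW780 and 201984_s_at (0.16 ± 0.06) higher. The first of these calls ended under median scaling (adjusted p = 0.107) and without A549 siFFluc replicate 1, SW780 siEGFP replicate 2 or SW780 siFFluc replicate 1 (0.0545 to 0.0672), and that of 201984_s_at without any of 5 control arrays (0.0514 to 0.0765). The ending x_at marks probe sets that may also bind other transcripts.

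The FGF receptors divided between the lines. FGFR3 had 2 probe sets, both above the filter. Its main one, 204379_s_at, read 635 and 607 under siEGFP and 891 and 788 under siFFluc in SW780, against 63.2 and 67.4, then 59.0 and 25.3 in A549. That is a 13.6-fold higher control mean in SW780 (3.45 ± 0.19, adjusted p = 2.58e-09), with no overlap. The other, 204380_s_at, was dim in both lines, at 40.1, 62.9, 78.6 and 64.8 in the SW780 controls and 2.9, 9.3, 25.1 and 9.2 in those of A549. It pointed the same way (1.52 ± 0.36, adjusted p = 0.00216 over all probe sets). All its A549 control signals lay below the filter, so this probe set passed mainly through SW780, where it is higher. Its call shows only that SW780 read higher, and its size is not a measured fold. At such signals the 16 added before taking logs makes the fold smaller.

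FGFR2, whose product in epithelial cells binds growth factors made by the stroma, was 780 ± 55.2 in SW780 and 168 ± 18.5 in A549 (2.11 ± 0.10, adjusted p = 6.32e-10). FGFR1 and FGFR4 went the other way. For FGFR1 the A549 controls read 1225, 1290, 1016 and 968 and those of SW780 between 108 and 129, a 9.80-fold higher mean in A549 (-3.12 ± 0.12 for SW780 minus A549, adjusted p = 7.39e-11). Of its 7 probe sets tested, 6 were called lower in SW780, while 60.5% of all probe sets were called between the lines. Among the 6, the dim 207822_at read 15.2 to 41.2 in the SW780 controls (-0.74 ± 0.30, adjusted p = 0.0434). Its call was kept in 8 of 20 alternatives. FGFR4 was at 276, 215, 262 and 248 in the A549 controls, and in SW780 1 siEGFP array read 50.9 while the other 3 controls read 5.9 to 8.9. Those 3 lie below the filter signal of 33.6, so the probe set passed through A549, where it is high. Its call (adjusted p = 1.68e-06) shows only that A549 read higher, and its size is not a measured fold. The log2 difference was -4.27 with 1 added to each signal and -1.96 with 64.

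MET, AXL and EPHA2 completed the profile. AXL was 4965 ± 192 in A549 and 957 ± 79.5 in SW780, 5.19-fold higher in A549 (-2.36 ± 0.05, adjusted p = 4.52e-13), and its second probe set gave -2.98 ± 0.21. MET was strong in both lines, 10328 ± 1206 in A549 and 8238 ± 912 in SW780 (-0.33 ± 0.06, adjusted p = 4.44e-04). The control arrays of the lines overlapped for MET, and its call ended under median scaling (adjusted p = 0.0654). EPHA2 was 2357 ± 273 in SW780 and 1494 ± 142 in A549 (0.65 ± 0.08, adjusted p = 8.3e-06), with no overlap.

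**Figure D1:**
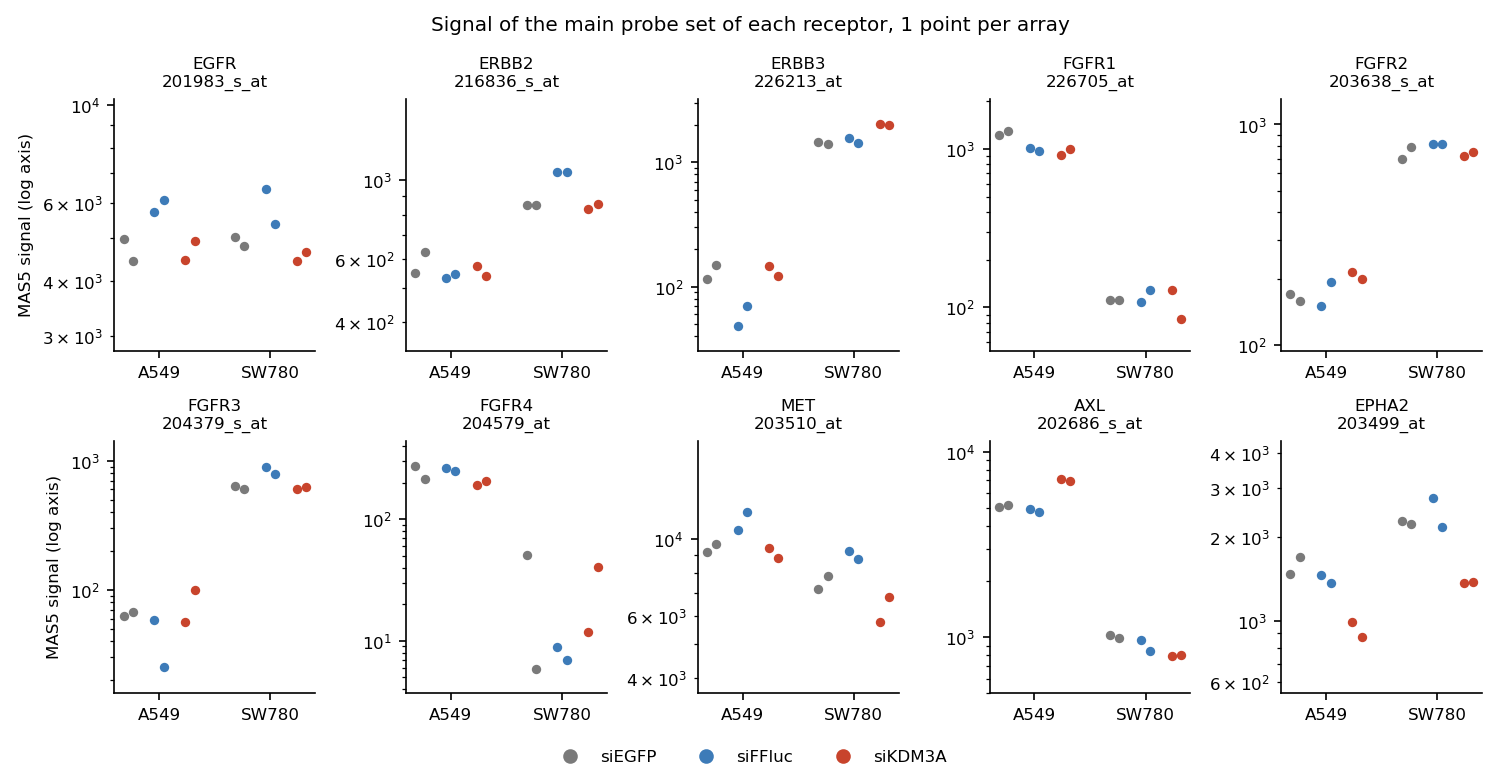
MAS5 signal (log axis) of the main probe set of each receptor on 12 arrays, 1 point per array, coloured by siRNA, with A549 left and SW780 right in each panel. FGFR3 reads 607 to 891 in the SW780 controls and 25.3 to 67.4 in those of A549, and both siKDM3A points of EPHA2 lie below the controls in each line.

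**Figure D2:**
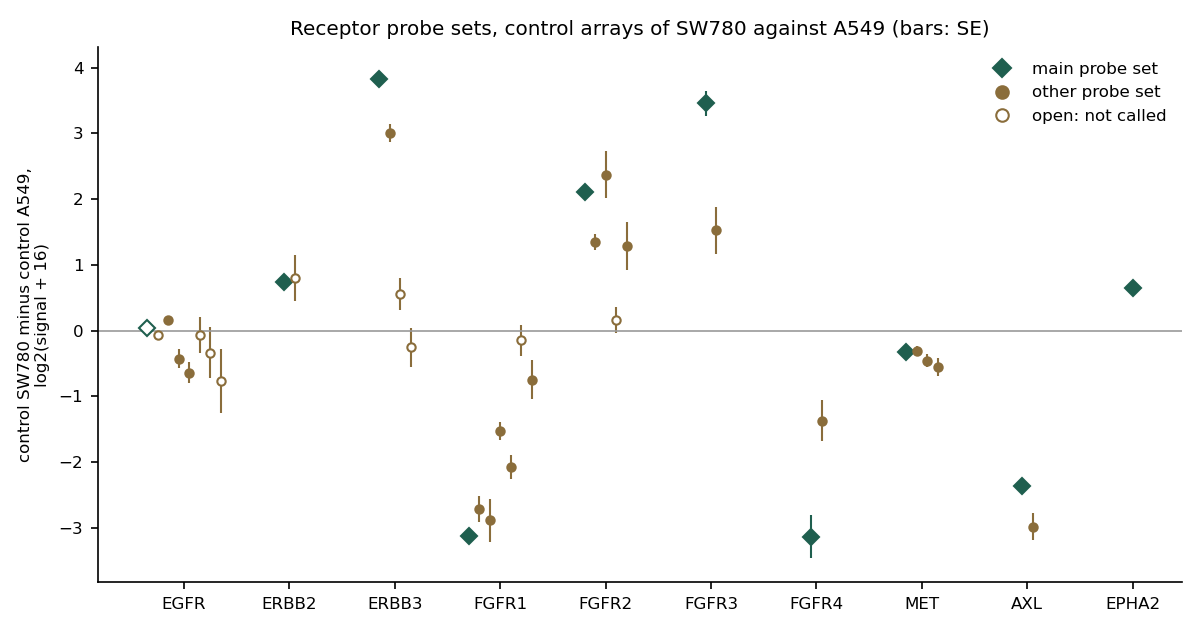
Difference of log2(signal + 16) between the control arrays of SW780 and A549 for the 37 receptor probe sets tested, with SE bars, main probe sets as diamonds and open symbols for those not called. Of them 11 were called higher in SW780 and 16 lower, where 60.5% of all probe sets were called, so the counts are not a result about receptors. The main probe sets of ERBB3 and FGFR1 lie at 3.83 and -3.12. The points of FGFR4 and of FGFR1 207822_at rest on SW780 signals mostly below the filter. That of FGFR3 204380_s_at rests on A549 signals below it. The heights of these points depend on the 16 added.

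BAIAP2L1 and TACC3, the fusion partners of FGFR3 known from bladder tumours, did not share its pattern. BAIAP2L1 was 3105 ± 115 in SW780 and 3433 ± 176 in A549 (-0.14 ± 0.06, adjusted p = 0.0348). TACC3 was 1212 ± 86.3 and 1290 ± 157 (-0.08 ± 0.07, adjusted p = 0.329). None of these signals tells a fused transcript from a normal one.

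Of 48 other receptor tyrosine kinases listed, 27 were tested, 12 higher in SW780 and 8 lower, with a median of -0.20 against -0.11 over all genes. Since 68.9% of all genes were called, neither this count nor those of the lists that follow is a result about the list. The orphan receptor ROR1 was 799 ± 325 in the A549 controls and 58.9 ± 7.49 in SW780 (-3.36 ± 0.13). The neurotrophin receptor NTRK3 was 747 ± 136 in A549, while 3 of its 4 SW780 controls lay below the filter signal. The ephrin receptor EPHB6 was 66.8 ± 16.1 in A549 and 967 ± 140 in SW780 (3.58 ± 0.17). These had the smallest p-values of the list.

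Among ligands of the 10 receptors, 3 of 20 tested were higher in SW780 and 8 lower (median -0.30). FGF2, a ligand of FGFR1, read 1212 to 1820 in the A549 controls and 1.7 to 32.4 in SW780, all below the filter signal, so that no fold is given. The EGFR ligand epiregulin, EREG, was 9180 ± 1034 in A549 and 3260 ± 764 in SW780 (-1.51 ± 0.06), and NRG1, a ligand of ERBB3, was 5335 ± 410 and 2172 ± 119 (-1.29 ± 0.06). In these lines ERBB3 and its ligand NRG1 were thus higher in different ones, while FGFR1 and FGF2 were both higher in A549.

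Of 12 co-receptors and shedding proteases tested, 5 were higher and 5 lower in SW780 (median 0.03), led by neuropilin NRP1 (-3.80 ± 0.09), the hyaluronan receptor CD44 (-1.17 ± 0.05) and the heparan sulfate proteoglycan SDC4 (1.39 ± 0.08). Adaptors and effectors had 10 of 24 tested higher and 8 lower (median 0.05), among them the docking protein GAB1 (1.71 ± 0.12), the PI3K subunit PIK3R1 (1.47 ± 0.11) and the adaptor GRB2 (0.70 ± 0.05, but -0.30 when all its probe sets were averaged). The other 11 genes of this list were not analysed here. Negative regulators and endocytosis genes had 11 of 33 higher and 16 lower (median -0.22). SH3KBP1, which links the ubiquitin ligase CBL to receptor uptake, was lower in SW780 (-2.36 ± 0.06), as was the phosphatase PTPN12 (-1.41 ± 0.05), and the phosphatase PTPRK was higher (1.78 ± 0.05).

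The knockdown comparison asked which receptors moved when KDM3A was lowered. EPHA2 fell in both lines, to 62.5% of its control mean in A549 and 58.0% in SW780. AXL rose in A549 and fell by less in SW780, MET fell in SW780, and ERBB3 rose in A549 in a call that rests on the siFFluc arrays. In each line 3 of 10 receptors were called, 2 higher and 1 lower in A549 and 0 higher and 3 lower in SW780. Of all genes tested 11.7% were called in A549 (5.33% higher, 6.35% lower) and 11.8% in SW780 (5.68% higher, 6.15% lower). The median change of the receptors was -0.09 in A549 and -0.19 in SW780, against -0.02 and 0.03 over all genes.

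EPHA2 had a single probe set. In A549 it read 1466 and 1695 under siEGFP, 1454 and 1359 under siFFluc, and 992 and 876 under siKDM3A (-0.67 ± 0.10, adjusted p = 8.53e-04). The SW780 values were 2280 and 2226, 2760 and 2162, and then 1364 and 1370 (-0.77 ± 0.10, adjusted p = 4.17e-04). No siKDM3A array reached the lowest control in either line, and the test of the difference between lines gave -0.11 ± 0.14 (adjusted p = 0.74). The call held under all 23 alternatives run in each line, with adjusted p-values up to 0.0305 in A549 and 0.00907 in SW780. Against siEGFP alone the fall was 0.75 in A549 and 0.71 in SW780 on the log2 scale, and against siFFluc alone 0.58 and 0.83.

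AXL, a receptor known for its part in invasive and drug-resistant carcinoma cells, moved in opposite directions. Its main probe set in A549 read 5044 and 5166 under siEGFP, 4936 and 4713 under siFFluc, and 7143 and 6945 under siKDM3A, 142% of the control mean (0.50 ± 0.07, adjusted p = 4.06e-04). In SW780 it read 1032 and 987, 964 and 845, and then 798 and 800, 83.5% of the control mean (-0.25 ± 0.07, adjusted p = 0.0284). The arrays did not overlap in either line.

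The difference between the AXL changes was called (-0.76 ± 0.09, SW780 minus A549, adjusted p = 0.00308). It was the sole receptor among the 10 for which this test passed, where 2.75% of all genes did. The rise in A549 was 0.46 against siEGFP alone and 0.54 against siFFluc alone. The fall in SW780 was less secure: it was not called against siFFluc alone (-0.17, adjusted p = 0.163), without either SW780 siKDM3A array (adjusted p = 0.143 and 0.137), without either SW780 siEGFP array (0.0803 and 0.0505), without either A549 siKDM3A array (0.0513 and 0.0512), or when SW780 was fitted alone (0.158). The second AXL probe set, 202685_s_at, gave 0.14 ± 0.25 in A549 and -0.49 ± 0.25 in SW780, neither called, and averaging it with the main one ended the calls (adjusted p = 0.138 in A549, 0.0878 in SW780 and 0.0855 for the difference).

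**Figure D3:**
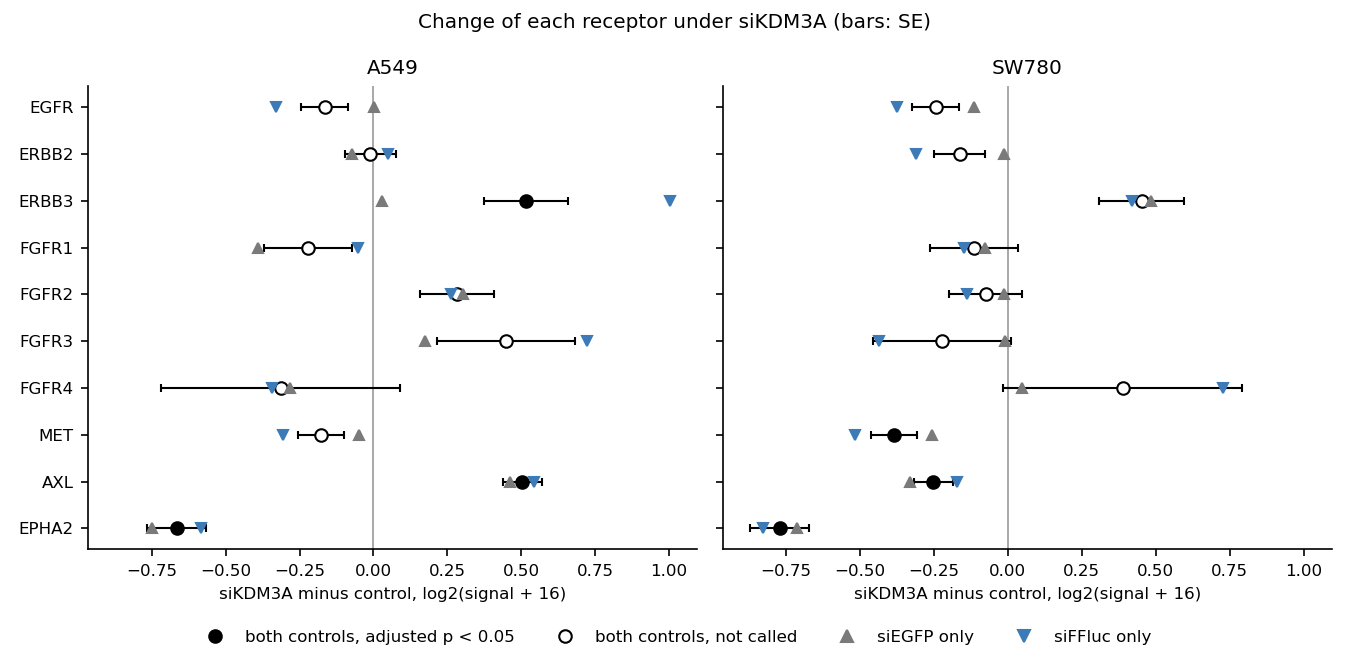
Change of each receptor under siKDM3A in A549 (left) and SW780 (right), as log2(signal + 16) against both controls (circles with SE, filled where adjusted p was under 0.05) and against siEGFP or siFFluc alone (triangles). EPHA2 lies at -0.67 and -0.77, AXL at 0.50 and -0.25, and the triangles of ERBB3 in A549 stand far apart, at 0.03 and 1.00.

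MET fell in SW780. Its main probe set 203510_at read 7182 and 7811 under siEGFP, 9200 and 8759 under siFFluc, and 5776 and 6811 under siKDM3A (-0.39 ± 0.08, adjusted p = 0.00673), with no overlap. This call ended against siEGFP alone (-0.26, adjusted p = 0.117) and without SW780 siKDM3A replicate 1 (adjusted p = 0.111). In A549 the same probe set read 9146 and 9674, 10594 and 11898, and 9397 and 8783, where the siKDM3A arrays overlapped siEGFP (-0.18 ± 0.08, adjusted p = 0.167). Against siFFluc alone it was called there (-0.31, adjusted p = 0.0485).

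Other MET probe sets gave larger changes in A549. In the fit of all probe sets, where 8.08% were called in A549 and 7.67% in SW780, 211599_x_at fell in A549 by 0.67 ± 0.10 (adjusted p = 8.18e-04). It read 1207, 1501, 1516 and 1450 in the controls and 850 and 912 under siKDM3A. The probe set 213807_x_at read 1093, 1200.5, 1035 and 1263 and then 643 and 556 (-0.92 ± 0.12, adjusted p = 4.29e-04). Both therefore separated the siKDM3A arrays of A549 from all controls, as the main probe set did not. In SW780 211599_x_at was called (-0.53 ± 0.10, adjusted p = 0.00467, and 0.0513 without SW780 siKDM3A replicate 1) and 213807_x_at was not (-0.24 ± 0.12, adjusted p = 0.27). The probe set 213816_s_at was called in neither line (-0.18 ± 0.16 and -0.32 ± 0.16). When all 4 were averaged, the fall in A549 passed (-0.49, adjusted p = 0.00284). The larger falls in that average came from 211599_x_at and 213807_x_at, whose ending marks probe sets that may also bind other transcripts.

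**Figure D4:**
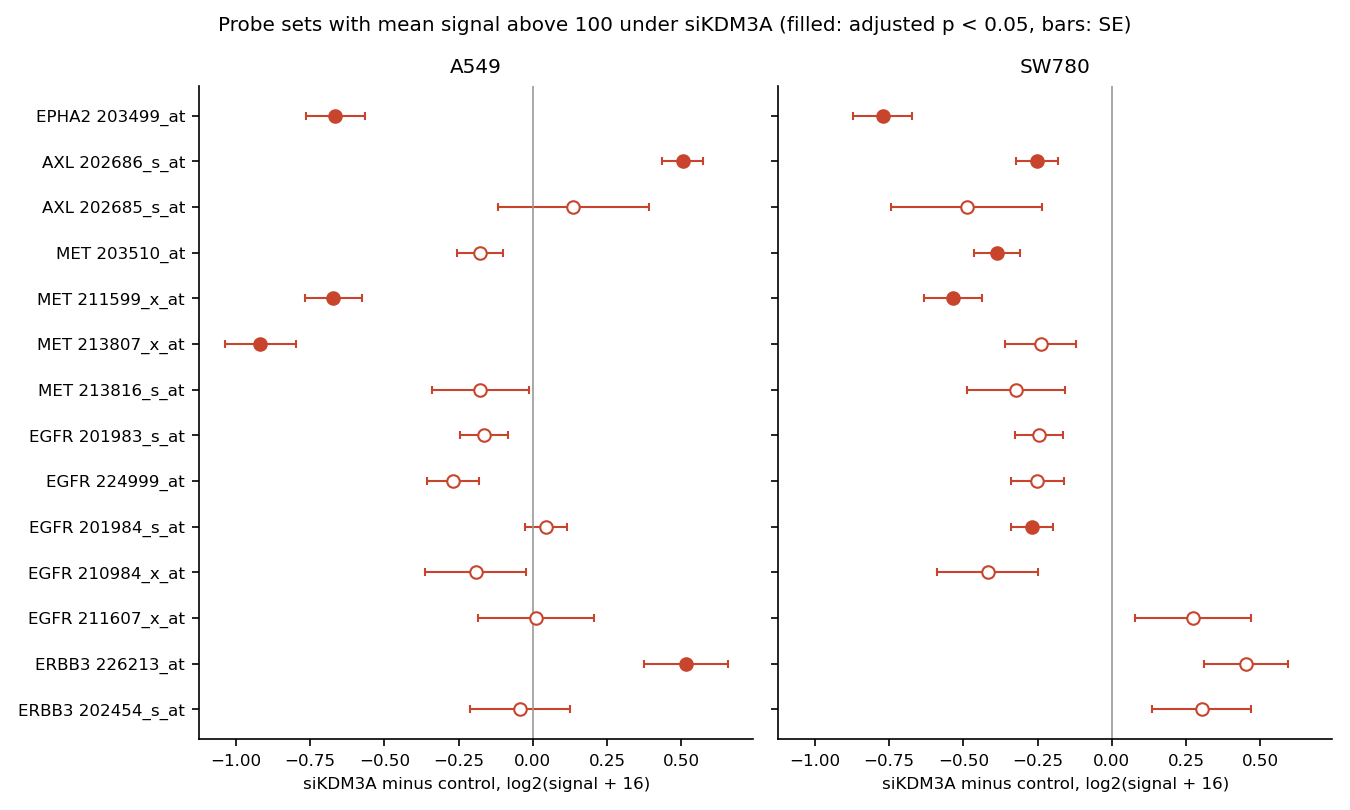
Change under siKDM3A, log2(signal + 16) with SE, for the probe sets of EPHA2, AXL, MET, EGFR and ERBB3 with a mean signal above 100, filled where the adjusted p over all probe sets was under 0.05. The 4 MET probe sets all lie below 0 in both lines, from -0.92 to -0.18 in A549.

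ERBB3 shows how far a call can rest on 1 control. In A549 it read 114 and 148 under siEGFP, 48.2 and 70.3 under siFFluc, and 146 and 121 under siKDM3A. The siKDM3A arrays lay within the range of the siEGFP arrays and above those of siFFluc. Against both controls the rise was called (0.52 ± 0.14, adjusted p = 0.035), against siEGFP alone it was 0.03 (adjusted p = 0.953), and against siFFluc alone 1.00 (adjusted p = 0.00205). The control siRNAs themselves differed (-0.97 ± 0.17, siFFluc minus siEGFP, adjusted p = 0.00518), a call lost on leaving out siEGFP replicate 2 (0.0687) or siFFluc replicate 1 (0.0625) of A549. The other 3 ERBB3 probe sets tested gave 0.12, 0.36 and 0.40 for siFFluc minus siEGFP, none called, and the mean of all gave -0.02 (adjusted p = 0.988). Averaging all ERBB3 probe sets turned the value to -0.06 (adjusted p = 0.907), and the call also ended without either A549 siKDM3A array (adjusted p = 0.29 and 0.0844), without A549 siEGFP replicate 1 (0.0881), without A549 siFFluc replicate 1 (0.0861), and without any of the 4 siEGFP and siKDM3A arrays of SW780 (0.054 to 0.0561).

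In SW780 the ERBB3 arrays separated clearly. The signals were 1450 and 1415 under siEGFP, 1565 and 1432 under siFFluc, and 2021 and 1997 under siKDM3A, 137% of the control mean. The value of 0.45 ± 0.14 did not pass over all genes (adjusted p = 0.0599). It passed when SW780 was fitted alone (adjusted p = 0.0115), in a separate fit with 64 added to each signal (0.02), with a stricter filter (0.0494), and without either A549 siFFluc array (0.0384 and 0.0395). A second probe set, 202454_s_at, read 825, 842, 888 and 728 in the controls and 1016 and 1011 under siKDM3A (0.30 ± 0.17, adjusted p = 0.325).

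EGFR and ERBB2 were not called in either line. EGFR gave -0.16 ± 0.08 in A549 (adjusted p = 0.226) and -0.24 ± 0.08 in SW780 (adjusted p = 0.0698). Its SW780 arrays read 5033 and 4802 under siEGFP, 6457 and 5384 under siFFluc, and 4435 and 4650 under siKDM3A, which were below all 4 controls, and the fall passed without SW780 siFFluc replicate 2 (adjusted p = 0.00936). Against siFFluc alone EGFR passed in both lines (-0.33, adjusted p = 0.0417, and -0.38, adjusted p = 0.0177), and against siEGFP alone the values were 0.00 and -0.11. One of its other probe sets, 201984_s_at, was called in SW780 (-0.27 ± 0.07, adjusted p = 0.0342), a call lost without either SW780 siKDM3A array (0.159 and 0.177), either SW780 siEGFP array (0.0944 and 0.0712), either A549 siKDM3A array (0.0558 and 0.0559) or either A549 siFFluc array (0.0534 and 0.0535). ERBB2 gave -0.01 ± 0.09 in A549 (adjusted p = 0.962) and -0.16 ± 0.09 in SW780 (adjusted p = 0.257).

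By its main probe set, none of the 4 FGF receptors was called under siKDM3A by limma in either line. FGFR3 read 608 and 623 in SW780 under siKDM3A, which overlapped siEGFP and lay below siFFluc (-0.22 ± 0.23, adjusted p = 0.606). In A549 it read 56.8 and 99.8 (0.45 ± 0.23, adjusted p = 0.262). Its dim probe set 204380_s_at read 77.4 and 33.8 in SW780 and 51.1 and 13.4 in A549 under siKDM3A, and replicates differed there by more than the groups. The dimmer FGFR4 probe set 1554962_a_at read 43.5, 8.2, 18.5 and 12.3 in the SW780 controls and 81.3 and 55.5 under siKDM3A (1.28 ± 0.37, adjusted p = 0.0553). It passed with the replicate block (0.0486) and without SW780 siEGFP replicate 1 (0.0201). FGFR1 gave -0.22 ± 0.15 and -0.11 ± 0.15, FGFR4 -0.31 ± 0.40 and 0.39 ± 0.40, and FGFR2 0.28 ± 0.12 and -0.08 ± 0.12 in A549 and SW780. FGFR2 read 216 and 199 under siKDM3A in A549, above its 4 controls at 150.2 to 193, and was called there under median scaling (adjusted p = 0.0382). Under that scaling 84.4% of all genes called in A549 were higher. The second FGFR2 probe set, 208228_s_at, read 160 and 232 under siKDM3A in A549 against 191 to 208 in the controls (-0.04 ± 0.15, adjusted p = 0.929). The dim 203639_s_at read 28.8 and 79.2 against 4.1 to 46.9 there (1.04 ± 0.43, adjusted p = 0.177). The dim 208229_at and 211401_s_at gave 0.07 ± 0.25 and -0.005 ± 0.44, neither called.

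The genes whose pattern was most like that of FGFR3 were sought by Pearson r over the 12 arrays, each taken as its deviation from the mean of its line. They were RIOK3 (0.878), ARFGEF2 (0.840), GUCD1 (0.832), SESTD1 (0.831) and TRIM52-AS1 (0.827), of 14060 genes compared. FGFR3 itself read only 25.3 to 99.8 on the A549 arrays, so the scatter of dim signals there enters the ranking. All arrays share these libraries and their scaling, so the values are a description.

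The control siRNAs were compared as the background of any siRNA. ERBB3 in A549 was the 1 receptor called (2.92% of all genes in A549), and in SW780 limma called 0 of 10 at the adjusted threshold (5.57% of all genes). EGFR was higher under siFFluc by 0.33 ± 0.09 in A549 (adjusted p = 0.0917) and by 0.26 ± 0.09 in SW780 (adjusted p = 0.127), without a call. MET gave 0.25 ± 0.09 and 0.26 ± 0.09, likewise not called. Both siFFluc arrays read above both siEGFP arrays for these receptors in both lines. With 2 arrays against 2, such separation was not particular to them among the 10 receptors. Its share over all genes is not given here, so nothing is read from it. In either direction it also held for ERBB2, ERBB3, FGFR1, FGFR3, AXL and EPHA2 in A549. In SW780 it also held for ERBB2, FGFR2, FGFR3 and AXL. Without SW780 siFFluc replicate 2 EGFR passed in SW780 (adjusted p = 0.0154), and without either SW780 siFFluc array it passed in A549 (0.0261 and 0.0263).

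Other genes around the receptors gave single calls between the control siRNAs. Of other receptor tyrosine kinases ROR1 (1.04 ± 0.18) and EPHB3 (1.25 ± 0.28) were higher under siFFluc in A549 and RYK (0.45 ± 0.11) in SW780, 2 and 1 of 27. The EGFR ligand HBEGF was lower in both lines (-0.64 ± 0.12 and -0.46 ± 0.12), the 1 ligand of 20 called in A549. EREG was lower in SW780 (-0.58 ± 0.08), where 2 of 20 were. Of 12 co-receptors and proteases 0 were called in A549, and NRP1 (-0.72 ± 0.12) and SDC1 (0.54 ± 0.13) in SW780. Of 24 adaptors and effectors MAPK3 was higher in A549 (0.70 ± 0.15) and 0 were called in SW780. Of 33 negative regulators INPPL1 was higher (0.74 ± 0.16) and SH3KBP1 (-0.46 ± 0.09) and PTPN1 (-0.45 ± 0.10) lower in A549, and STAM (-0.29 ± 0.08) was lower in SW780. Apart from that of EREG, each of these calls ended when some 1 array was left out, with a highest adjusted p between 0.0732 (NRP1) and 0.297 (INPPL1).

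Under siKDM3A the ligands were led by EREG, which fell in both lines. In A549 it read 8874 and 7905 under siEGFP, 10315 and 9627 under siFFluc, and 4001 and 3728 under siKDM3A (-1.24 ± 0.07, adjusted p = 2.76e-07). In SW780 it read 3804 and 4020, 2716 and 2498, and then 2246 and 2275 (-0.49 ± 0.07, adjusted p = 6.94e-04). The siKDM3A arrays lay below all controls in each line, and the call in SW780 ended against siFFluc alone (adjusted p = 0.107) and with the mean of its probe sets (-0.21, adjusted p = 0.413). The falls differed between the lines (0.74 ± 0.10, adjusted p = 0.00308), a difference not called with siEGFP as the only control (0.198) or with the mean of probe sets (0.14).

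Of the 20 ligands tested 1 rose and 2 fell in A549 (median -0.11), and 1 rose and 2 fell in SW780 (median 0.13). With 11.7% and 11.8% of all genes called and medians of -0.02 and 0.03, nothing is read from the counts of this list or of those that follow. TGFA, another EGFR ligand, fell in A549 from 1480 ± 173 to 1079 ± 139 (-0.45 ± 0.09, adjusted p = 0.00589), a call lost without A549 siKDM3A replicate 2 (0.126). NRG1 rose there from 5335 ± 410 to 6338 ± 1.98 (0.25 ± 0.07, adjusted p = 0.0398), but averaging its probe sets gave -0.15 (adjusted p = 0.407). It was called neither against siEGFP alone (0.105) nor against siFFluc alone (0.0638), and it ended in 9 of the fits that left out 1 array, with adjusted p-values up to 0.221. The EPHA2 ligand gene EFNA1 rose in SW780 from 683 ± 63.6 to 859 ± 26.2 (0.33 ± 0.09, adjusted p = 0.026), while EPHA2 fell there. The dim FGF6 fell in SW780 from 78.1 ± 17.6 to 19.2 ± 8.77 (adjusted p = 0.0143), where both siKDM3A arrays lay below the filter signal. Against siEGFP alone neither EFNA1 (adjusted p = 0.184) nor FGF6 (0.0808) was called, and under median scaling EFNA1 was not (0.171). The EFNA1 call ended without SW780 siKDM3A replicate 1 (0.101) or 2 (0.169) or SW780 siEGFP replicate 2 (0.0805), and the FGF6 call without SW780 siKDM3A replicate 1 (0.131).

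Co-receptors and shedding proteases had 2 of 12 lower in A549 and 5 lower in SW780, with 0 higher in either (medians -0.12 and -0.21). CD44, which presents growth factors to receptors, fell from 15908 ± 481 to 13496 ± 421 in A549 (-0.24 ± 0.06, adjusted p = 0.0261) and from 7089 ± 726 to 5396 ± 121 in SW780 (-0.39 ± 0.06, adjusted p = 0.00164). In A549 this ended under median scaling (0.574), without either siKDM3A array (0.234 and 0.119), and without siEGFP replicate 1 (0.0669) or either siFFluc array (0.0795 and 0.0529). FGFBP1, a carrier of FGFs, fell in SW780 from 1156 ± 99.4 to 699 ± 28.6 (-0.71 ± 0.10, adjusted p = 6.94e-04) and was at 1218 ± 151 and 1126 ± 97.0 in A549. The dim genes KLB in A549 (56.6 ± 9.13 to 22.9 ± 7.07) and ADAM12 in SW780 (34.2 ± 14.96 to 5.25 ± 3.89) were called lower too, and each call ended when 1 array was left out (adjusted p up to 0.292 and 0.107). The protease gene ADAM9 (-0.36 ± 0.10) and NRP1 (-0.36 ± 0.11) were the others called in SW780, named after their values were seen.

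Adaptors and effectors had 1 of 24 lower in A549 and 2 in SW780 (medians 0.01 and -0.04). The kinase gene SRC fell in both, from 1344 ± 74.5 to 967 ± 45.2 (-0.47 ± 0.10, adjusted p = 0.0111) and from 1408 ± 231 to 1013 ± 3.39 (-0.46 ± 0.10, adjusted p = 0.0125). Averaging its probe sets gave 0.08 in A549 (adjusted p = 0.904) and -0.13 in SW780 (adjusted p = 0.798), the SW780 call was lost against siEGFP alone (0.122), and neither call held without a siKDM3A array of that line (0.125 and 0.0676 in A549, 0.0863 and 0.088 in SW780). MAPK3, which encodes ERK1, fell in SW780 from 624 ± 87.2 to 389 ± 23.3 (-0.65 ± 0.13, adjusted p = 0.00662), a call lost against siEGFP alone (0.0642) and without SW780 siKDM3A replicate 2 (0.0729).

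Of 33 negative regulators, 1 rose and 4 fell in A549 (median -0.13) and 1 fell in SW780 (median -0.03). CBL, the ubiquitin ligase that marks active receptors such as EGFR and MET for degradation, stood out. It read 877 and 833 under siEGFP, 852 and 781 under siFFluc, and 361 and 333 under siKDM3A in A549 (-1.23 ± 0.09, adjusted p = 3.39e-06). In SW780 it read 739 and 813, 739.5 and 759, and then 745 and 714, where the groups overlapped. The difference between lines was called (1.17 ± 0.13, adjusted p = 0.00111) and ended when the CBL probe sets were averaged (0.145).

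The phosphatase gene PTPRF and the RAS pathway inhibitor gene SPRED2 fell in A549 as well (-0.42 ± 0.09 and -0.37 ± 0.09), as did the signalling inhibitor gene SPRY2 (-0.46 ± 0.11), while the phosphatase gene PTPN2 rose (0.25 ± 0.07); SPRY2 and PTPN2 were named after their values were seen. The sorting gene HGS fell in SW780 (-0.36 ± 0.09). Averaging the HGS probe sets gave -0.07 (adjusted p = 0.849), and against siEGFP alone HGS was not called (0.198). The calls of PTPRF and SPRED2 ended with the mean of probe sets (0.0629 and 0.586) and under median scaling (0.117 and 0.175). The PTPRF and SPRED2 calls ended without A549 siKDM3A replicate 1 (0.159 and 0.218), that of SPRED2 also without A549 siEGFP replicate 2 (0.0501) or siFFluc replicate 1 (0.0507), and the HGS call without either siKDM3A array (0.157 and 0.129) or either siEGFP array (0.0716 and 0.0613) of SW780. Among the 27 other receptor tyrosine kinases, LMTK2 fell in A549 from 392 ± 68.9 to 209 ± 68.9 (-0.88 ± 0.19, adjusted p = 0.0109, and 0.186 without A549 siKDM3A replicate 1). Averaging the LMTK2 probe sets gave -0.58 in A549 (adjusted p = 0.14). In SW780 limma called 0 of the 27. Their medians were -0.23 in A549 and 0.01 in SW780.

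**Figure D5:**
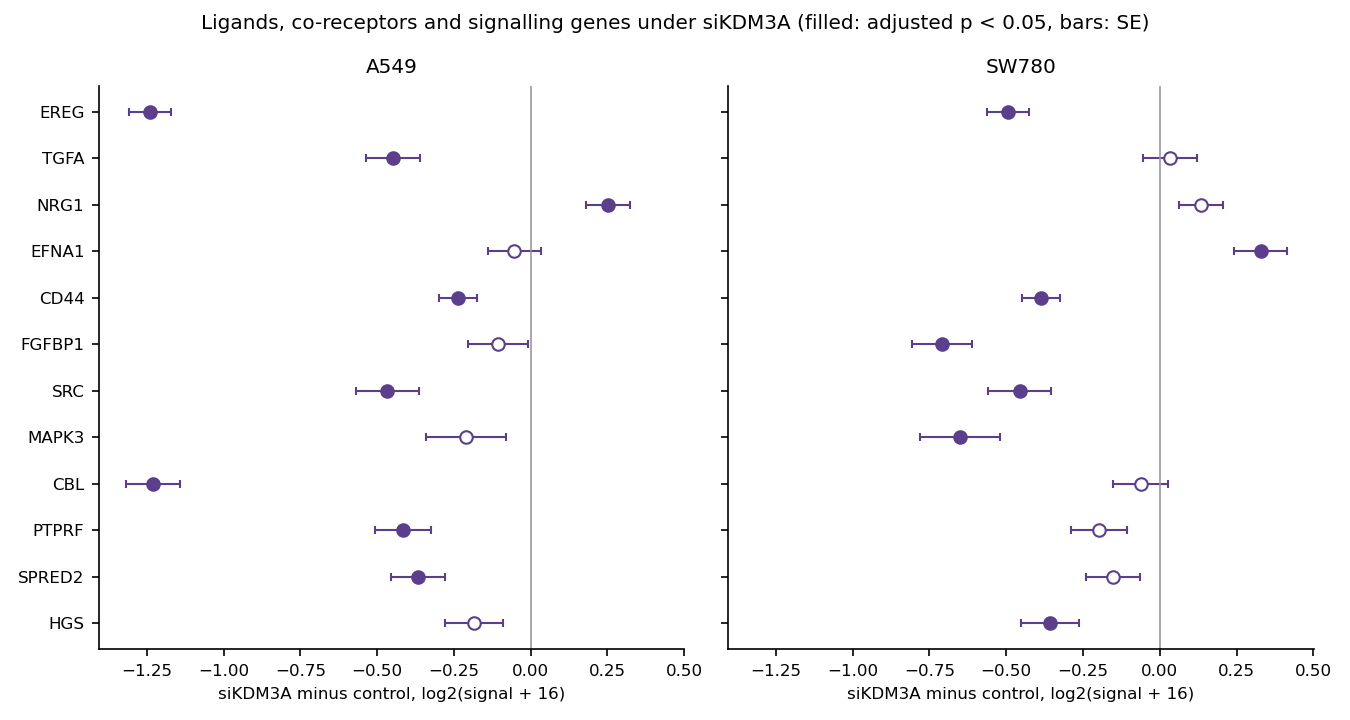
Change under siKDM3A in A549 (left) and SW780 (right), log2(signal + 16) with SE, for 12 ligands, co-receptors and signalling genes, filled where adjusted p was under 0.05. EREG lies at -1.24 and -0.49, and CBL at -1.23 in A549 against a value near 0 in SW780.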

How the data were processed

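RNA on 12 arrays was analysed as MAS5 signal intensity on a linear scale, as deposited. MAS5 is the tool listed, with no version, among the submitters' processing notes. The trimmed mean (2% left out at each end) was the same on all arrays, so the deposited intensities had been scaled to 1 target.

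After 62 control probe sets were removed, 54613 remained. The 2016 annotation gave a single symbol to 41091 of these, several to 1801 and none to 11721, and 41037 symbols were matched to RefSeq (GRCh38.p14) by gene number. Probe sets with a mean signal at or above the 40th percentile (33.6) were kept (32768), and the probe set of highest mean was tested per gene (14061). A model of 6 group means was fitted to log2(signal + 16) with limma 3.58.1 (R 4.3.3, trended prior variance) for 6 contrasts, and again over all probe sets kept. P-values from limma were adjusted by Benjamini-Hochberg over all features of a fit, and the threshold was 0.05. The procedure was tested on simulated data. Figures were drawn with matplotlib 3.10.9.

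The members and lists were chosen with earlier results of these data known. Named genes are the receptors, KDM3A, BAIAP2L1, TACC3, the 5 genes most like FGFR3, and for each list and comparison, at most 3 called members, those with the smallest p. SPRY2, PTPN2, ADAM9 and NRP1 under siKDM3A are exceptions, named after their values were seen, as were the probe sets beyond the main ones. The lists were other receptor tyrosine kinases, ligands, co-receptors and shedding proteases, adaptors and effectors, negative regulators and endocytosis genes, and cell type markers. Promoter windows and motifs were picked after the values were seen. Alternatives varied the pseudocount, filter, scaling, choice of probe set, control siRNA, replicate block, line fitted alone, and each array left out.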

Additional observations from a re-analysis of the deposited data

Results flagged for a closer look

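The change under siKDM3A differed between SW780 and A549 for 4 of the genes named, by limma's test of the difference itself. FGFBP1, CBL and EREG are listed because they passed this same test, so the number 4 is not a result. Of all genes tested, 2.75% passed. For AXL the difference was -0.76 (SW780 minus A549, adjusted p = 0.00308) and for FGFBP1 -0.60 (adjusted p = 0.0398). For CBL it was 1.17 (adjusted p = 0.00111) and for EREG 0.74 (adjusted p = 0.00308). The FGFBP1 difference was lost under 15 of 22 alternatives, among them either control siRNA alone.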

How the results depend on the processing

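The EPHA2 calls in both lines kept their direction and their side of the threshold under all alternatives run. The number of receptors called under siKDM3A in A549 was 5 with siFFluc as the only control, and 2 to 3 when 1 array was left out. In SW780 it was 1 to 4 when 1 array was left out, the lowest without siKDM3A replicate 1. For the difference between lines it was 3 under median scaling (FGFR2, MET and AXL), 0 with the mean of a gene's probe sets, and 1 in each fit without 1 array. For siFFluc against siEGFP in A549 it was 2 after quantile normalization, 0 with the mean of probe sets, and 0 to 2 without 1 array, and in SW780 0 to 1 without 1 array. Receptor probe sets called were 4 with siEGFP as the only control, against 7, and 4 to 9 without 1 array. Averaging probe sets turned ERBB3 (-0.0556), NRG1 (-0.15) and SRC (0.0794) under siKDM3A in A549, and EGFR (-0.26) and GRB2 (-0.30) between lines. The cause was not tested.

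Median scaling moved the median change of all genes to 0.12 in A549, -0.07 in SW780 and -0.21 for the difference between lines. The share of called genes that were higher moved from 45.6% to 84.4%, from 48.0% to 18.4% and from 64.6% to 6.1%. Replicate numbers did not pair the arrays (correlation of deviations -0.03 to 0.02). With the replicate number as a block 3 receptors were called in each line, 1 for the difference and 9 between lines, as without it. Dim probe sets, such as those of FGFR4 in SW780 and FGFR3 in A549, limit what can be measured there.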
